A study of Mus musculus with 10 samples.

Results

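The mouse array of this study carried 122 probes, of 5030 in all, whose gene symbols matched a naming rule for homeobox and forkhead transcription factors. The members were chosen by name only (Hox, Fox, Pax, Pou, Meis, Pbx, Nkx, Lhx, Dlx, Msx, Pitx, Irx, Cdx, Otx, Emx, Gbx, Prrx, Alx, Tlx, Isl, En, Evx, Vax, Barx and Gsc genes and the family of Six6), so no measured value entered the choice. Whole-number intensities could be recovered for 119 of them. The probes of Foxq1, Hoxd4 and Hoxb5 could not be recovered and have no level here. Of the 119 probes, 118 are named for 1 gene, and 1 probe is named for both Hoxd9 and Hoxd10 and so measures neither alone. Pou2af1 matched the naming rule although it is a coactivator of POU factors and not a homeobox factor itself. No member gene had more than 1 probe of its own.

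Total RNA came from urinary bladders of female WT (C57BL/6J) mice and of PAR1-/- mice, which lack proteinase-activated receptor 1, the thrombin receptor encoded by F2r. Bladders were instilled with saline and taken at 24 h, or with Escherichia coli lipopolysaccharide (LPS, 100 μg/ml) or substance P (SP, a sensory neuropeptide) and taken at 4 or 24 h. The sample labels give SP as 10 μM for WT and 20 μM for PAR1-/- mice, whereas the study's methods give 10 μM, so dose and genotype cannot be told apart for SP. Each of the 10 conditions was 1 pool of 8 whole bladders on 1 array, which leaves no replicate of any condition, and the saline arrays stand only for 24 h. In whole bladder, fewer cells of a type and less RNA per cell cannot be told apart.

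Homeobox proteins bind DNA through the homeodomain, and forkhead proteins through a winged-helix domain. Hox genes lie in clusters and are used along the body axis in the order in which they lie, with the 5′ members (paralog groups 9 to 13) marking the posterior trunk, where the hindgut, bladder and genital tract form. TALE factors such as Meis and Pbx bind DNA together with Hox proteins, whereas POU, Pax and Nkx factors are best known for the patterning of brain, sense organs, pharynx and heart. Forkhead factors of the Foxa and Foxf groups are known from the epithelium and the mesenchyme of the bladder.

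The level of a member is its spot intensity, called above background if it exceeded the background mode of the array by over 3 SD. This gave thresholds between 12.1 and 29 on the 10 arrays. On the WT LPS 24 h array, 86.3% of probes held the single value 15 and the next value was 29, so that values between are not known there. Total intensity ran from 72852 to 305516, and the challenged arrays other than WT SP at 24 h had a median probe ratio to saline between 1.5 and 2.22 before scaling. The arrays were therefore scaled to each other, and a ratio below is between scaled intensities unless said otherwise. F2r itself was above background on 1 of the 5 WT arrays (LPS 4 h, intensity 195) and on 2 of the 5 PAR1-/- arrays (SP 4 h at 51 and SP 24 h at 21). Where its probe lies relative to the disrupted part of the gene is not given, so it does not check the genotypes. Few tissue markers were above background throughout: 1 of 7 smooth muscle probes was on all 10 arrays (Acta2), none of 5 urothelial probes (Krt13 on 9, Krt19 on 8, Upk2 on 4, Krt18 on 3 and Krt15 on 0 arrays), 1 of 6 fibroblast probes (Vim) and 3 of 13 probes for genes abundant in every cell. Pairs of probes with 1 shared gene name (34 pairs, 22 genes) correlated over the arrays with a median of 0.08, and 5000 pairs with different names with a median of 0.26, which limits how far any value below can be tied to the gene in its name.

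Most of these probes were above background on some arrays or on none, as were most probes of the array. The members above it on all 10 arrays were Hox, other homeobox or forkhead genes, and no TALE, POU or Pax gene was among them. Of the 119 probes, 15 (12.6%) were above background on all 10 arrays, 46 (38.7%) on none, and 34 (28.6%) on both saline arrays. Over all 4955 probes the shares were 11.6%, 34.5% and 23.6%, so the families as a whole were detected about as often as the rest of the array. On single arrays, between 35 and 55 members were above background on 9 arrays and 17 on WT LPS 24 h. On the 9 arrays these were 29.4% to 46.2% of members, against 30.2% to 46.9% of all probes. The shares were 14.3% of members and 13.5% of all probes on WT LPS 24 h. Of 13 members above background on 9 arrays, 11 were missing on that array alone, among them Irx3, Pitx3, Pou3f2, Pax6 and Cdx4. Only 11 members were above background on a single array, 3 of them (Lhx2, Pax8 and Pitx1) on the PAR1-/- array of SP at 4 h, which also had the highest total intensity.

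**Figure D1:**
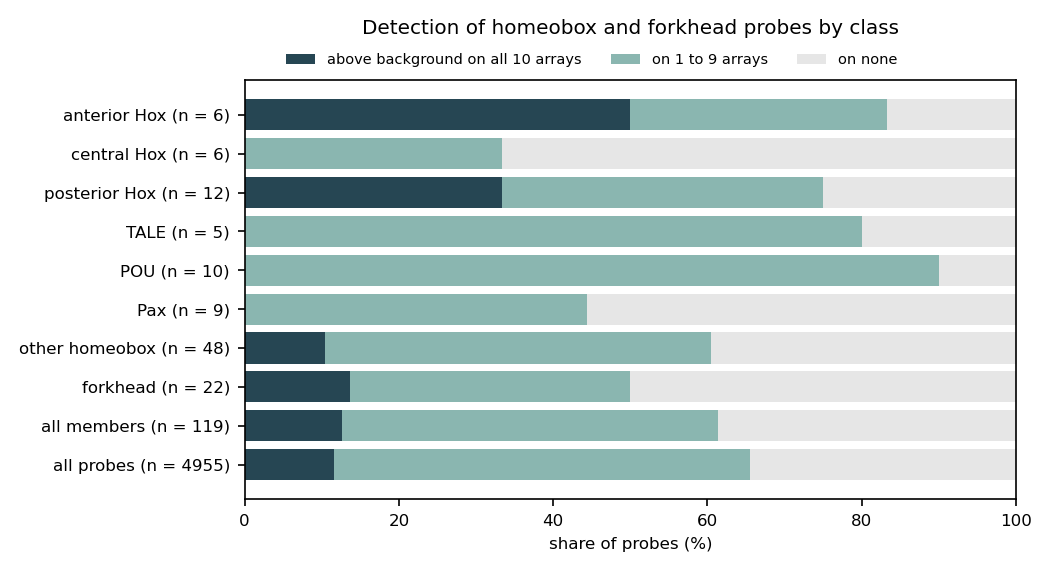
Share of probes (x axis, percent) in each class that were above background on all 10 arrays, on 1 to 9 arrays or on none, with all members and all probes of the array at the bottom. Anterior and posterior Hox probes hold 50% and 33.3% above background on all arrays against 11.6% of all probes, whereas TALE, POU, Pax and central Hox probes hold none.

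Among the Hox genes, those on all arrays came from both ends of the clusters and none from the middle. Of 12 posterior Hox probes, 4 were above background on all 10 arrays (Hoxa10, Hoxd10, Hoxb13 and Hoxd13), 5 on some, and 3 (Hoxb9, Hoxc10 and Hoxd12) on none. Of 6 anterior probes (groups 1 to 4), Hoxd1, Hoxa2 and Hoxc4 were above background on all arrays, although such genes are best known from the hindbrain and the neck. None of the 6 central probes (groups 5 to 8) was, and 4 of these were above background on no array. These counts are small and were not tested.

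**Figure D2:**
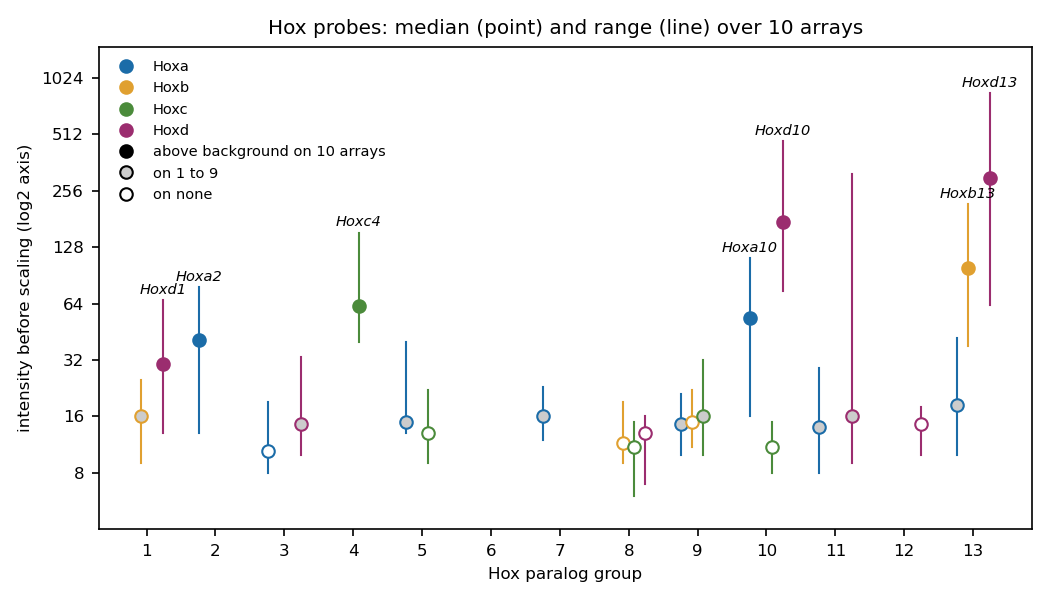
Spot intensity before scaling (y axis, log2 scale) of the 24 Hox probes by paralog group (x axis), with the median (point) and the range (line) over the 10 arrays and colour for the cluster. Filled points are above background on all 10 arrays, grey points on 1 to 9 and open points on none. Intensities of different probes do not compare amounts of RNA, so only the fill and the length of the lines carry meaning between genes.

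Hoxd13, the last gene of the HoxD cluster and a patterning gene of limbs and the urogenital tract, had scaled intensities of 229, 207, 153, 190 and 286 on the WT arrays of saline, LPS 4 h, LPS 24 h, SP 4 h and SP 24 h. On the PAR1-/- arrays, in the same order, it had 178, 266, 318, 277 and 314. The values of the genotypes overlapped, and its 10 arrays spanned 2.08-fold. Hoxb13, known from the hindgut, tail and prostate, stayed between 66.6 and 94.7 on 9 arrays and reached 160 on WT SP 24 h, a span of 2.40-fold. Hoxa10, a gene of the female genital tract, had 67.1, 43.6, 103, 40.9 and 28.3 in WT and 49.3, 50.5, 29.9, 45.7 and 54.9 in PAR1-/- bladders. Its WT arrays covered the whole range of the PAR1-/- arrays. Prrx2 and Foxk1, a mesenchymal homeobox gene and a widely expressed forkhead gene, varied least among the members on all arrays, by 1.92-fold and 1.77-fold.

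Of the other homeobox members, Prrx1, Prrx2, Tlx2, Six6 and Nkx2-6 were above background on all 10 arrays. Of the forkhead members, Foxd1, Foxk1 and Foxn1 were above it on all arrays and 11 of 22 on none, including Foxa1, Foxf1, Foxf2, Foxo1, Foxo3 and Foxm1. Of 9 Pax probes, Pax6 was above background on 9 arrays, Pax5 on 5, Pax1 on 2, Pax8 on 1 and the other 5 on none. Meis1 (8 arrays) and Pbx2 (9 arrays) were the most often detected TALE members. POU probes were detected on at least 1 array in 9 of 10 cases, with Pou3f1 and Pou3f2 on 9 arrays. Grouped by where the genes are best known, 58.3% of 36 probes for genes of the lower urinary tract or of wide expression were above background on at least 1 array. The share was 58.5% of 53 probes for genes best known from brain, eye, gut, heart, thymus or skin. At that cut both groups were detected about equally often, against 65.5% of all probes. On all 10 arrays, 8 of the 36 and 4 of the 53 probes were above background, against 11.6% of all probes.

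The saline arrays give the only view of unchallenged bladders, 1 per genotype. Over the 34 members above background on both, the log2 ratio of PAR1-/- to WT had an SD of 0.60, which corresponds to 1.52-fold, and over all 1167 such probes an SD of 0.49, or 1.40-fold. Foxn1 was the only member beyond 3-fold, at 4.93 times the WT level (8 of the 1167 probes were beyond 3-fold). Hoxd10 came next at 2.18 times, and Cdx4 and Foxc1 lay lowest at 0.51 times. These differences enter every ratio to saline below, because the 4 comparisons of a genotype share its saline array.

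After challenge of WT bladders, members beyond 3-fold above saline appeared at 4 h and, for LPS, at 24 h, and in PAR1-/- bladders there were none. At LPS 4 h, 3 of the 48 members with a ratio or bound were more than 3-fold higher (Foxn1, Hoxd11 and Pou3f2), with 5.58% of all probes. At LPS 24 h, 2 of 27 were (Foxn1 and Six6; 1.89% of all probes), and at SP 4 h 3 of 45 (Foxn1, Meis1 and Pitx3; 4.55%). At SP 24 h none of 40 was (0.853%). In PAR1-/- bladders none of 41, 46, 40 and 43 members was more than 3-fold higher after LPS 4 h, LPS 24 h, SP 4 h and SP 24 h, where all probes gave 1.79%, 1.27%, 1.35% and 1.74%. With so few members, none is close to these shares. Against the mean of both saline arrays, Foxn1 was more than 3-fold higher in each of these 4 comparisons. Below saline by more than 3-fold, WT bladders had Hoxc4 at LPS 4 h (1.15% of all probes) and Irx3 at LPS 24 h (0.21%), and no member after SP at 4 h (1.42%) or 24 h (0.533%). Hoxd10 was more than 3-fold lower in all 4 PAR1-/- comparisons (1.41%, 1.37%, 2.17% and 1.74% of all probes, in the same order), but in 1 when the arrays were only shifted and in 2 against the mean of both saline arrays. The median ratio of the members ran from 0.889 to 1.09 over the 8 comparisons, and that of all probes from 0.897 to 1.08. With 1 array a condition none of these ratios carries a test.

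**Figure D3:**
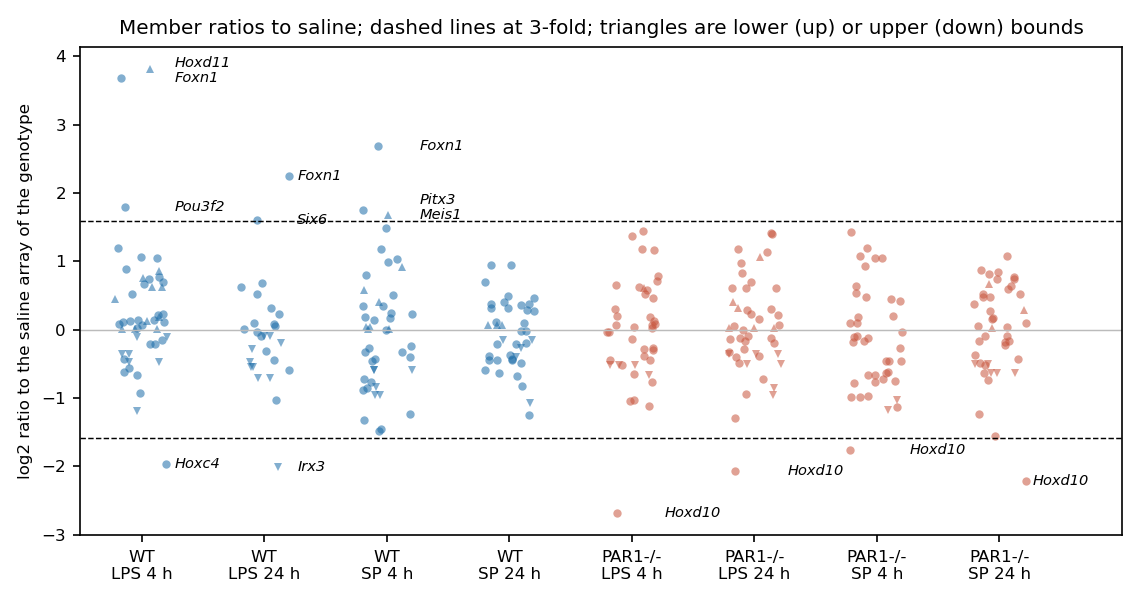
Log2 ratio of each member to the saline array of its genotype (y axis) in the 8 comparisons (x axis), WT in blue and PAR1-/- in red. Circles are ratios, upward triangles lower bounds and downward triangles upper bounds, and the dashed lines mark 3-fold. Points above the upper line occur in 3 of the 4 WT comparisons and in no PAR1-/- comparison, and Hoxd10 lies below the lower line in all 4 PAR1-/- comparisons.

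The study's criterion for a PAR1-dependent gene was a rise over 3-fold in WT bladders after SP or LPS with no change in PAR1-/- bladders. Applied here, no change was read as no ratio or bound beyond 3-fold, and a comparison without a ratio counted as unchanged. Read so, 6 of 119 member probes (5.04%) met it, Foxn1, Hoxd11, Meis1, Pitx3, Pou3f2 and Six6, against 2.99% of all probes. They were not all flat in PAR1-/- bladders, where Pitx3 reached 2.59, Foxn1 2.28 and Six6 0.408 times saline. Hoxd11 had a bound there only at SP 24 h. None of these 6 is in the study's own list of PAR1-dependent transcripts, in which the symbols that match the naming rule used here are Nkx2-6 and Pax1. Neither met the criterion here, as Nkx2-6 was at most 1.84 times saline in WT bladders after scaling and Pax1 had no ratio. Before scaling, the Nkx2-6 ratio was 3.71 at WT LPS 4 h and 4.57 at WT SP 4 h. Its PAR1-/- ratios were then 5.10 to 12.65, so Nkx2-6 missed the criterion there too. Which members met it depended on the settings: with no normalization 7 did, of which 1 was shared (Hoxd11), and at 2-fold 6 did, of which 3 were shared (Hoxd11, Meis1 and Pou3f2). The mirror, over 3-fold in PAR1-/- and unaltered in WT bladders, held for no member, against 0.888% of all probes. Read so, the criterion asks only on which side of 3-fold each ratio or bound lies. It therefore does not require that the response differs clearly between the genotypes. For Hoxd11 the rise at WT LPS 4 h had no PAR1-/- ratio to set beside it. The interaction of genotype and challenge pools all challenged arrays of a genotype, so it does not test a rise in 1 comparison alone. It was fitted for 5 of the 6 (Hoxd11 was above background on too few arrays). The challenge effect in PAR1-/- minus that in WT was -1.29 ± 1.18 for Foxn1, -1.23 ± 0.88 for Six6, -0.39 ± 0.74 for Meis1, -0.32 ± 0.94 for Pou3f2 and 0.09 ± 0.78 for Pitx3 (log2, SE). None of these differences passed (limma, adjusted p = 0.984 to 0.994), although errors of this size leave room for large differences.

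Foxn1, the forkhead gene of thymic epithelium and hair follicle keratinocytes that is mutated in nude mice, lies at chr11:78357577-78386783 (GRCm38.p6). Its intensity before scaling was 13 on the WT saline array, just over the threshold of 12.4 there, and 14 on WT SP 24 h. It was 306 at LPS 4 h, 92 at LPS 24 h and 322 at SP 4 h. The PAR1-/- arrays had 43 for saline and 214, 374, 676 and 296 for LPS 4 h, LPS 24 h, SP 4 h and SP 24 h. The 2 dim arrays were thus both WT, and all 5 PAR1-/- arrays were far above their thresholds. After scaling, the WT ratios to saline were 12.9, 4.75, 6.46 and 1.08, and the PAR1-/- ratios were 1.44, 2.28, 2.06 and 1.79. Against the mean of both saline arrays the first 3 WT ratios were 5.80, 2.14 and 2.91, and Foxn1 was the member beyond 3-fold in each of the 4 PAR1-/- comparisons, so meeting the criterion rested on the WT saline value.

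Hoxd11, a posterior HoxD gene of limb and kidney patterning at chr2:74679558-74687016, was bright on 1 array. Its intensity was 313 at WT LPS 4 h and between 9 and 32 on the 9 others, where it was above background only at WT SP 4 h (28) and PAR1-/- SP 24 h (32). The WT ratio at LPS 4 h was at least 14.0-fold higher than saline, since saline was not above background. The intensity of Hoxd12, its neighbour in the cluster, lay between 10 and 18 on the 10 arrays and never passed the threshold. Hoxd10 and Hoxd13, of the same cluster, had 1.10 and 0.904 times their saline level at WT LPS 4 h.

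The other members more than 3-fold above WT saline, Pou3f2, Pitx3, Meis1 and Six6, had ratios or bounds between 3.05 and 3.48, in 1 comparison each. The 13.8 of Pou3f2 and Pitx3 on WT LPS 24 h is the value that most probes share there. Pou3f2, a POU factor of neurons, had scaled intensities of 35.4, 123, 13.8, 70.4 and 26.2 on the WT arrays and of 33.6, 36.8, 27.5, 38.7 and 56.3 on the PAR1-/- arrays. The 2 WT arrays of 4 h were above every PAR1-/- array, and the ratio at LPS 4 h was 3.48. Pitx3, known from lens and midbrain dopamine neurons, had 33.1, 69.0, 13.8, 111 and 63.5 in WT and 38.7, 100, 75.8, 79.9 and 55.6 in PAR1-/- bladders. Its ratio was 3.36 at WT SP 4 h and 2.59 at PAR1-/- LPS 4 h, on either side of the limit. Meis1, a TALE partner of Hox proteins, was not above background in WT saline and reached 67.0 at SP 4 h, at least 3.21-fold higher, against 23.4 to 45.2 on the PAR1-/- arrays. Six6, a gene of eye and pituitary, had 59.5, 64.3, 181, 50.6 and 37.2 in WT and 81.2, 37.6, 33.1, 59.2 and 34.4 in PAR1-/- bladders. Its WT ratio of 3.05 at LPS 24 h came from the array on which most probes shared 1 value. Meis1 at 2.31-fold with 1 floor for all arrays, and Six6 at 2.71-fold when the arrays were only shifted, lay under the limit.

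**Figure D4:**
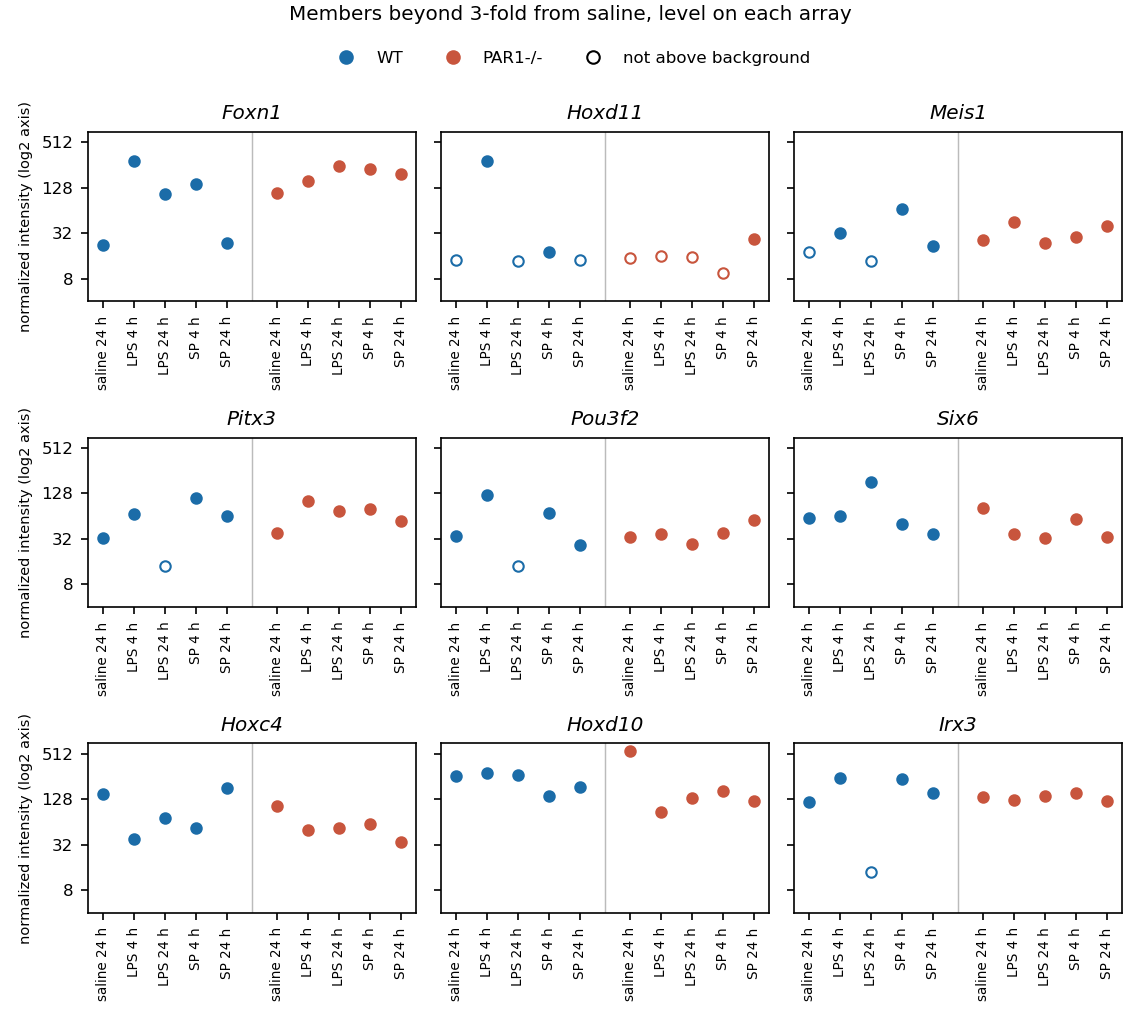
Scaled intensity (y axis, log2 scale) on each of the 10 arrays (x axis) of the 9 members beyond 3-fold from saline in at least 1 comparison, WT in blue and PAR1-/- in red. Open points are not above background. Foxn1 is dim on the WT arrays of saline and SP 24 h only, Hoxd11 is bright at WT LPS 4 h only, and Hoxd10 is highest on the PAR1-/- saline array.

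Hoxd10, a limb and spinal cord patterning gene at chr2:74684273-74695106, had scaled intensities of 255, 281, 269, 141 and 187 on the WT arrays and 556, 86.9, 133, 164 and 120 on the PAR1-/- arrays. The saline array was the highest of all in PAR1-/- bladders, and in WT bladders it lay within the range of the challenged arrays. The PAR1-/- ratios were 0.156, 0.238, 0.295 and 0.216, and the WT ratios 1.10, 1.05, 0.552 and 0.734. All 4 PAR1-/- ratios share that 1 saline array. Before scaling, the Hoxd10 intensity was 154 on it and 111, 180, 473 and 171 on the challenged arrays, which are ratios of 0.721, 1.17, 3.07 and 1.11. With a shift of the arrays in place of the regression the scaled ratios were 0.234, 0.391, 0.486 and 0.346, and against the mean of both saline arrays 0.230, 0.352, 0.436 and 0.319. The lower level after challenge in PAR1-/- bladders therefore depended on scaling for 3 of the 4 comparisons. The probe shared with Hoxd9 was above background on no array and correlated with the Hoxd10 probe at 0.27 over the 10 arrays.

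Hoxc4, an anterior Hox gene, had scaled intensities of 148, 38.0, 72.8, 52.8 and 181 on the WT arrays and 103, 49.8, 53.7, 60.3 and 35.1 on the PAR1-/- arrays. It was highest on WT saline and WT SP 24 h, which were also the 2 WT arrays of lowest total intensity (75984 and 77244). The ratio at WT LPS 4 h was 0.256, and 0.656 before scaling. Irx3, an Iroquois homeobox gene of neural and limb patterning, had intensities of 50, 256, 15, 579 and 64 in WT and 51, 164, 193, 440 and 172 in PAR1-/- bladders. The 15 at WT LPS 24 h is the value that most probes share there, and the ratio was at most 0.249. On the other 7 challenged arrays its ratio lay between 0.889 and 2.07.

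RefSeq gives the sequence in front of a transcript start of each of these genes. The windows below hold the 250 bases before the RefSeq start (GRCm38.p6, first start listed for each gene, of 2 for Hoxd11; the Hoxd10 window lies within, and the Foxn1 window partly within, the gene as annotated) of the 3 members more than 3-fold higher at WT LPS 4 h and of Hoxd10, which was more than 3-fold lower in PAR1-/- bladders. Capitals mark matches, on either strand, to 5 motifs that were searched: AP-1 (TGANTCA), a core of NF-kB sites (GGNNTTTCC), the cyclic AMP element (TGACGTCA), a homeodomain core (TAATTA) and a forkhead core (TGTTTAC).
Foxn1, chr11:78386609-78386858, minus strand: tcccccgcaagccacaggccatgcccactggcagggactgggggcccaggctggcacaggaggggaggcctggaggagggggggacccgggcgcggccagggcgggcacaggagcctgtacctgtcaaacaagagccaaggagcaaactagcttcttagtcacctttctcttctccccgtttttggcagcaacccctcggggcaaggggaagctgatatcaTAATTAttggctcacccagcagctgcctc
Hoxd11, chr2:74679308-74679557, plus strand: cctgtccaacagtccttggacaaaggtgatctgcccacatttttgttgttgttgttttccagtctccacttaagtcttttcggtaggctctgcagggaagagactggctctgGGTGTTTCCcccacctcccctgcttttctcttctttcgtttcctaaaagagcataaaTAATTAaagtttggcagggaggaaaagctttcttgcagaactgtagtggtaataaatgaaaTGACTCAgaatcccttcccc
Pou3f2, chr4:22488367-22488616, minus strand: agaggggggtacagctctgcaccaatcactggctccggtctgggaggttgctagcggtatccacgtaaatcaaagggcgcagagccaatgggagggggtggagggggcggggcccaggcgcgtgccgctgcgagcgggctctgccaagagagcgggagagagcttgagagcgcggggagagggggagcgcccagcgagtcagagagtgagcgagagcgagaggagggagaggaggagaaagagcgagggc
Hoxd10, chr2:74691641-74691890, plus strand: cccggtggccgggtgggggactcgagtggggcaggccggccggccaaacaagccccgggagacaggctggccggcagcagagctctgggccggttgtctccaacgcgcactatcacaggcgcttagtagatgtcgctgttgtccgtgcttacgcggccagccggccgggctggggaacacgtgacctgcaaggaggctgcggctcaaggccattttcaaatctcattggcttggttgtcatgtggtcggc
The Hoxd11 window held an NF-kB, a homeodomain and an AP-1 match, which began 138, 81 and 20 bases before the start. The Foxn1 window held 1 homeodomain match 29 bases before its start, and the windows of Pou3f2 and Hoxd10 held none of the 5 motifs. Among 27025 mouse genes with such a window, 6.87% held the AP-1 letters, 4.84% the NF-kB letters, 1.62% the cyclic AMP element, 4.9% TAATTA and 3.09% TGTTTAC. The windows of Six6, Meis1, Pitx3, Hoxc4 and Irx3 held no match either. A match describes letters in this window only.

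Across arrays the design allowed limma tests that use other conditions as replication, on the 2082 probes above background on at least 4 arrays, 45 of them members. No member passed a Benjamini-Hochberg adjusted p of 0.05 for genotype, time, stimulus, challenge or the interaction of genotype and challenge. Over all probes 0% passed for genotype, time, stimulus and interaction, and 0.0961% for challenge. At an unadjusted p under 0.05, limma counted 7, 5, 5, 6 and 2 of the 45 members, where all probes gave 12.6%, 11.8%, 12.4%, 11.5% and 3.75%.

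For genotype the smallest p among members belonged to Foxb2, a forkhead gene, with PAR1-/- above WT by 0.84 ± 0.21 (log2, SE) over 5 pairs of arrays (limma, adjusted p = 0.338). Its scaled intensity was 18.1, 21.0, 13.8, 21.0 and 19.9 in WT and 26.2, 41.4, 40.2, 55.4 and 40.9 in PAR1-/- bladders. It was higher in PAR1-/- bladders in 5 of 5 conditions. On 3 of the WT arrays it was not above background, and on that of LPS 24 h the level is known only to be under 29.0, so whether the genotypes overlap cannot be said. Nkx2-6, a homeobox gene of pharynx and heart, had 40.0, 73.7, 42.7, 51.0 and 51.2 in WT and 41.3, 112, 109, 94.2 and 75.9 in PAR1-/- bladders. It was higher in PAR1-/- by 0.69 ± 0.21 (limma, adjusted p = 0.351), with almost equal saline levels. Its ratios to saline were 1.84, 1.07, 1.28 and 1.28 in WT and 2.71, 2.65, 2.28 and 1.84 in PAR1-/- bladders, none beyond 3-fold. Foxc1, a forkhead gene of eye and mesoderm, was lower in PAR1-/- by 0.61 ± 0.19 on the log2 scale (limma, adjusted p = 0.353), a log2 difference of -0.34 without the floor. Foxn1 passed the genotype test (1 member) when the arrays were normalized by quantiles. With no normalization between arrays 3 members passed it, Foxb2, Nkx2-6 and Foxn1. Pax1, a gene of sclerotome and pharyngeal pouches, was above background only on the 2 arrays PAR1-/- LPS 24 h (20) and PAR1-/- SP 4 h (36) and had no ratio in any comparison.

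**Figure D5:**
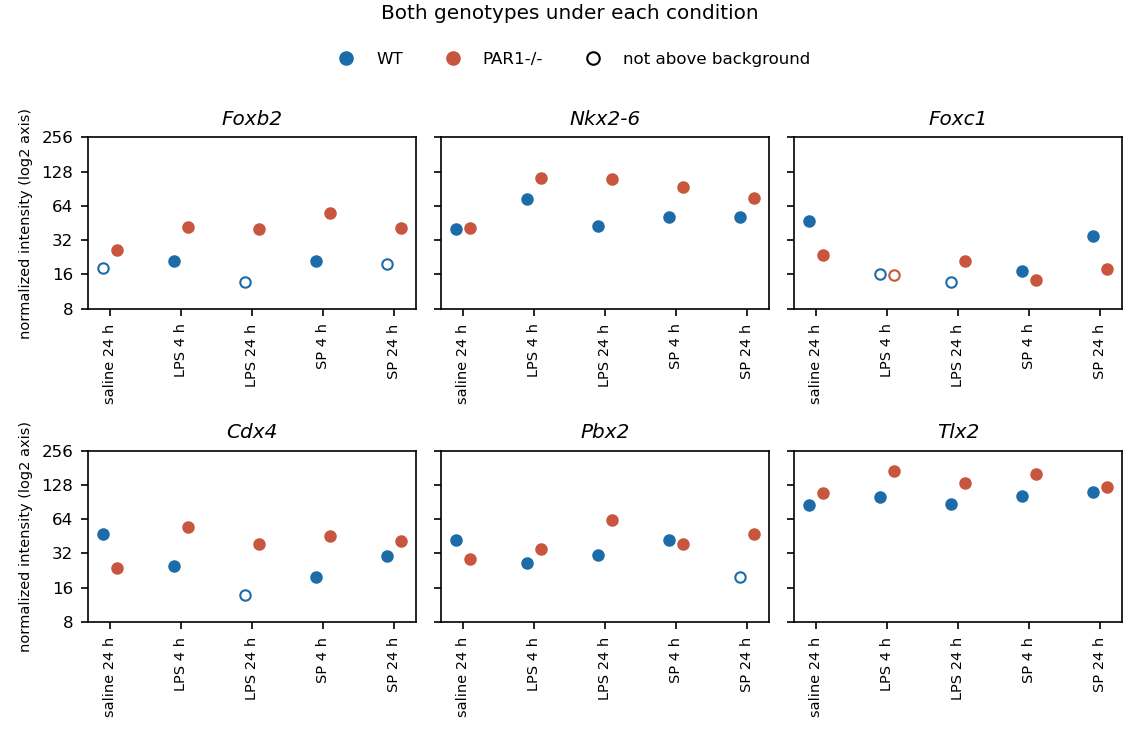
Scaled intensity (y axis, log2 scale) of 6 members under the 5 conditions (x axis) in WT (blue) and PAR1-/- (red) bladders, with open points not above background. Foxb2 and Tlx2 are higher in PAR1-/- in all 5 conditions, and Cdx4 and Pbx2 are lower in PAR1-/- under saline and higher under both LPS conditions. None passed the adjusted p of limma on the scaled intensities.

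For time, 24 h minus 4 h over 4 pairs, Pitx3 had a log2 difference of -0.75 ± 0.21, Barx2 of 0.56 ± 0.18 and Foxd1, a gene of kidney stroma, of 0.56 ± 0.19 (limma, adjusted p = 0.403 for each). Without scaling the difference was -0.28 for Foxd1 and -0.0042 for Barx2, so their direction depended on it. For stimulus, LPS minus SP over 4 pairs, Hoxa13, a gene of hindgut and urogenital sinus, had 0.63 ± 0.17, Barx2 0.55 ± 0.18 and Pax6, an eye and pancreas gene, 0.53 ± 0.18 (limma, adjusted p = 0.394 for each). Without the floor at the background threshold the stimulus differences were 0.32 for Barx2 and 0.26 for Pax6, and the time difference of Barx2 was 0.26. For challenge, the 8 challenged arrays minus the 2 saline arrays, Hoxd10 had -1.23 ± 0.39, Nkx2-6 0.82 ± 0.28 and Foxn1 1.54 ± 0.59 (limma, adjusted p = 0.294, 0.325 and 0.357). Leaving out the WT array of SP at 24 h brought 2 members, Foxn1 and Hoxc4, past the adjusted p for challenge, and quantile normalization brought Foxn1. For the interaction, the challenge effect of PAR1-/- minus that of WT, Cdx4 had 1.77 ± 0.53 and Hoxd10 -1.91 ± 0.63 (limma, adjusted p = 0.984 for both).

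Regulators of the Hox clusters were set beside the members. Of 13 probes for Polycomb genes (repressors of Hox clusters) and related chromatin genes, which include the heterochromatin proteins Cbx1 and Cbx5, Pcgf2 was more than 3-fold higher in a WT comparison and Cbx2 more than 3-fold lower in at least 1 comparison. Pcgf2 was above background on 1 array only, WT LPS 4 h, at 327 before scaling. The Cbx2 ratios were 0.711, 1.20, 0.432 and 0.343 in WT and 0.32, 0.259, 0.279 and 0.234 in PAR1-/- bladders, with the PAR1-/- saline array shared by the last 4 as it was for Hoxd10. Before scaling, the Cbx2 intensity was 168 on that saline array and 277, 225, 503 and 211 on the challenged PAR1-/- arrays. The last 4 ratios thus fell below 1 only after scaling. Of 2 trithorax probes (activators of Hox clusters) neither moved beyond 3-fold, and of 12 probes for retinoid handling and retinoid receptors, which set Hox borders, only Crabp1 did, being higher in a PAR1-/- comparison. Over all probes 4.42% were more than 3-fold higher and 2.00% more than 3-fold lower in at least 1 of the 8 comparisons. Of these probes limma tested 6 of 13, 1 of 2 and 9 of 12, and none of those tested passed.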

How the data were processed

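Pools of 8 bladders were hybridized as radioactively labelled cDNA to Clontech Atlas mouse plastic 5 K arrays, 1 array per condition, and spots were quantified by the authors in AtlasImage. The deposited values are scores. Within a probe their log2 values average 0 over the 10 arrays with the same SD for all probes, a step read from the values and not stated in the sources used here. Whole-number intensities were recovered from the scores by a search up to 3000 (Python 3.11.15, numba 0.67.0), for 4955 of 5030 probes (98.5%), which assumes that each probe's numbers share no lost common factor.

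Background was the mode of an array plus 3 SD of the values below it. Where most probes shared 1 value (WT LPS 24 h), the next value, 29, was used. Arrays were scaled by robust regression (MASS 7.3.60.0.1) on the mean of the arrays over 574 probes above background on all, and values under background were raised to the threshold, which makes a ratio with a dim side a bound. Ratios of challenged arrays to saline of the same genotype were taken without a test. The tests across arrays used limma 3.58.1 on the scaled log2 intensities with Benjamini-Hochberg adjustment over 2082 probes, with condition as a block for genotype, genotype by stimulus for time and genotype by time for stimulus. No sample was dropped or imputed. The scripts were tested on simulated data.

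Probe names came from the platform annotation and positions and promoter windows from RefSeq (GRCm38.p6). Named genes were the members beyond 3-fold, those on all 10 arrays, the posterior Hox genes, Nkx2-6 and Pax1, and the 3 smallest p for genotype, time and stimulus. Cbx2, Pcgf2, Crabp1, Tlx2, Pbx2, Cdx4 and the members cited as detected or not fall outside that rule and were chosen after their values were seen. The members, lists and tests were chosen with earlier results of these data known. Precision is limited by the single array per condition.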

Additional observations from a re-analysis of the deposited data

Results flagged for a closer look

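Every member with a ratio or bound in all 8 comparisons was examined for opposite directions in the genotypes, which are each represented by 4 challenged arrays and 1 shared saline array. Of 27 such members, 2 (7.41%) lay on opposite sides of saline in every comparison, against 51 of 898 probes (5.68%) over the whole array. Cdx4, a homeobox gene of the posterior embryo, had ratios of 0.525, at most 0.614, 0.423 and 0.646 in WT and of 2.28, 1.62, 1.90 and 1.71 in PAR1-/- bladders. The median log2 ratio of WT minus that of PAR1-/- was -1.67. Pbx2, a TALE partner of Hox proteins, had 0.629, 0.736, 0.997 and at most 0.474 in WT and 1.23, 2.21, 1.37 and 1.68 in PAR1-/- bladders, a median difference of -1.15. The interaction test passed neither (limma, adjusted p = 0.984 for both). Before scaling the WT ratios of Cdx4 were 1.08, 0.625, 1.33 and 0.708, on both sides of 1, and those of PAR1-/- were 5.08, 3.31, 8.54 and 3.92. Those of Pbx2 were 1.27, 1.41, 3.50 and 0.545 in WT and 2.73, 5.07, 6.27 and 4.07 in PAR1-/- bladders, so that 3 of its 4 WT ratios turned to the side of PAR1-/- without scaling. On the saline arrays both genes were lower in PAR1-/-, at 0.506 times the WT level for Cdx4 and 0.675 times for Pbx2, and these 2 arrays enter all 8 ratios. What part the saline arrays have in the pattern was not tested.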

How the results depend on the processing

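Normalization between arrays mattered most. With no normalization the members more than 3-fold higher numbered 12 at WT LPS 4 h, 23 at WT SP 4 h and 15, 14, 29 and 19 in PAR1-/- bladders at LPS 4 h, LPS 24 h, SP 4 h and SP 24 h, and none was more than 3-fold lower in any comparison (0 at WT LPS 4 h, WT LPS 24 h and the 4 PAR1-/- comparisons). The mirror criterion then held for 11 members, and 3, 2 and 5 members passed the adjusted p for genotype, time and challenge. These were Foxb2, Foxn1 and Nkx2-6 for genotype and Foxn1 and Irx3 for time. For challenge they were Foxn1, Hoxd13, Nkx2-6, Pitx3 and Tlx2. The Hoxd10 ratios turned to 1.17, 3.07 and 1.11 at PAR1-/- LPS 24 h, SP 4 h and SP 24 h, and the time differences of Barx2 and Foxd1 to -0.0042 and -0.28. A shift in place of the regression left 1 member higher at WT LPS 24 h. With the mean of both saline arrays the higher members were 0 at WT LPS 24 h, 1 at WT SP 4 h and 1 in each PAR1-/- comparison (Foxn1). Quantile normalization gave 1 member past the adjusted p for genotype and 1 for challenge (Foxn1). At 2-fold the members higher were 6 at WT LPS 4 h and WT SP 4 h and 4, 5, 5 and 1 in PAR1-/- bladders. The members lower were 2, 2, 4 and 2 in the WT comparisons and 4, 2, 4 and 3 in the PAR1-/- ones, and the mirror criterion held for 5.

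With single arrays left out, the members past the adjusted p numbered 0 to 2 for challenge, 2 without WT SP 24 h, and 0 in the other tests. Without a saline array the interaction could not be fitted. The 2 SD threshold, the floor of the WT LPS 24 h array by mode and SD and the fit without both LPS 24 h arrays (the last 2 chosen after seeing the data), the common floor, no floor and the wider filter kept every count of members, though not every difference of a single member, within 1.5 times. No paired analysis was possible because the replicate number is 1 for every array and no 2 arrays share mice. The blocks in the limma tests match arrays by treatment only. Dim spots limit what can be said of the 46 members above background on no array.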
